A study of Mus musculus with 4 samples.

Results

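The Lin28 genes and the classic targets of the let-7 microRNAs were followed in mouse embryonic stem (ES) cells, in 8 genes built around Hmga2. These are Lin28a and Lin28b, Trim71, Igf2bp1, Igf2bp2 and Igf2bp3, and Hmga2 with its relative Hmga1. The 8 genes were chosen by symbol among the 24054 genes of the count tables, with the higher level of Hmga2 in the rescue clones already known from the same libraries, so their differences between rescue and wild type are described without a test. All 8 had enough counts to be among the 13267 genes tested. RNA was sequenced from 1 library of wild-type ES cells (line wt26, the parent of the clones) and from 1 library each of the 3 Morc3 rescue clones T131-3C, T131-3D and T131-3M, here called 3C, 3D and 3M. Morc3 is an ATPase that takes part in the silencing of endogenous retroviruses. The rescue clones derive from a single Morc3 ko clone of the wild-type line, which was transfected with a PiggyBac vector carrying the Morc3 cDNA and selected with puromycin. They therefore share every other difference that arose in the ko clone. All cells grew without feeders on gelatin in serum and LIF. Libraries of the ko cells were not analysed here.

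Lin28 proteins bind the loop of let-7 precursors and recruit terminal uridylyltransferases, which blocks the maturation of let-7. Mature let-7 in turn represses mRNAs that carry its seed match in the 3′ UTR, among them Lin28a and Lin28b themselves, so the proteins and the microRNAs hold each other down. ES cells are known for high Lin28a and low mature let-7, and let-7 rises as they differentiate. Trim71 is a Trim-NHL protein and let-7 target of early embryos, the Igf2bp proteins bind and stabilise mRNAs, and the HMGA proteins are small architectural factors that bind AT-rich DNA.

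The mature let-7 family is shown first because its shared seed defines the sites discussed here. RefSeq's table for GRCm38, the assembly of mm10, lists 11 mature let-7 and miR-98 entries on the 5′ arm with 9 distinct sequences of 22 bases, and all share 1 seed. Seed bases 2 to 8 are in capitals.
let-7a: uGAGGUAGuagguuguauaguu
let-7b: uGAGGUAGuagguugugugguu
let-7c: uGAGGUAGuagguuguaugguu
let-7d: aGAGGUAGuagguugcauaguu
let-7e: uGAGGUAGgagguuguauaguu
let-7f: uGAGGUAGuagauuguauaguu
let-7g: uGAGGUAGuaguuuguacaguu
let-7i: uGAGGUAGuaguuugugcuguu
miR-98: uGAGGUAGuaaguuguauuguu

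The precursors differ in the element that Lin28 is known to bind. Of the 12 hairpins in the table, 9 hold the letters GGAG between their arms, in capitals in the pair of precursors with enough counts to be tested, Mirlet7d (chr13:48536012-48536114, minus strand) and Mirlet7f-1 (chr13:48537829-48537917, minus strand). Mirlet7b (chr15:85707319-85707403, plus strand) is shown as 1 of the 3 without these letters there, with Mirlet7c-2 and Mir98 the others.
Mirlet7d: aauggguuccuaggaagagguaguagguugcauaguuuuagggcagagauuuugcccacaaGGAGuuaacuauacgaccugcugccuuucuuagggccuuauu
Mirlet7f-1: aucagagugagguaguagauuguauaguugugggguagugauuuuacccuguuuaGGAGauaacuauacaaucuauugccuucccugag
Mirlet7b: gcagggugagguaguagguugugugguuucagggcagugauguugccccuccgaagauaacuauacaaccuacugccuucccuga

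Matches to the seed were then counted in annotated 3′ UTRs (GENCODE, GRCm38, the longest 3′ UTR of each gene, sense strand only). A site was CTACCTCA, or either of the 7-base strings inside it, CTACCTC and TACCTCA, each match counted once. The 8-base string was present in 3.02% of 20979 genes' 3′ UTRs, CTACCTC in 8.96% and TACCTCA in 9.74%, and 14.8% of 3′ UTRs held at least 1 site. All 8 genes held a site, as their choice as let-7 targets would have it. Hmga2 had 7 sites in 3014 bases, Trim71 6, Lin28b and Igf2bp1 5 each, Lin28a and Igf2bp2 2 each, and Hmga1 and Igf2bp3 1 each. Only 0.162% of the 20979 genes had 4 or more sites, and 5 genes had at least as many as Hmga2 (D10Wsu102e, Nr6a1, Hmga2 itself, Mcf2l and Nudt12). The numbers are not scaled to the length of the 3′ UTR, which is annotated as 122583 bases for D10Wsu102e. The 8-base form occurred 4 times in Trim71, 3 times in Igf2bp1, 2 times in Lin28a and 1 time in each of Hmga2, Lin28b, Igf2bp2 and Igf2bp3, while the site of Hmga1 had 7 bases. A match to these letters is a description of the sequence, and binding of let-7 was not measured.

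The 7 sites of Hmga2 (chromosome 10, minus strand, mm10) are shown because no other gene of the group has as many. They are given in order from the stop codon as stretches of 22 bases, with the match in capitals.
Hmga2 chr10:120364224-120364245: ccgacattcaatttCTACCTCA
Hmga2 chr10:120363140-120363161: gaccgcagtaccactTACCTCA
Hmga2 chr10:120362987-120363008: cccactcctcaataCTACCTCt
Hmga2 chr10:120362599-120362620: aagtctccaagtttgTACCTCA
Hmga2 chr10:120362549-120362570: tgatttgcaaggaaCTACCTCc
Hmga2 chr10:120361691-120361712: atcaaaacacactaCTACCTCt
Hmga2 chr10:120361672-120361693: tcttaagtcccagtaTACCTCA

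The first site of each other gene is shown for comparison. For Lin28b, Igf2bp2 and Igf2bp3 it is the only 8-base site. All lie on the minus strand of mm10 except that of Hmga1, which is on the plus strand.
Lin28a chr4:134005189-134005210: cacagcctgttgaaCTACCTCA
Lin28b chr10:45381022-45381043: cccgggcgggaagtCTACCTCA
Trim71 chr9:114512472-114512493: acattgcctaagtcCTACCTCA
Igf2bp1 chr11:95961778-95961799: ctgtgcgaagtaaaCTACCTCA
Igf2bp2 chr16:22059473-22059494: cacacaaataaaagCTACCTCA
Igf2bp3 chr6:49086787-49086808: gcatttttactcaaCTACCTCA
Hmga1 chr17:27563278-27563299: cctctgttcacaaaCTACCTCt

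Gene counts summed to 18789457 in the wt26 library and to between 13620914 and 15479190 in the clones. Values are given as CPM, which are counts scaled to library size with TMM factors, and errors of log2 fold changes are standard errors (SE) of the fit. Morc3, the label check, had 161 CPM in wt26 cells and 655, 497 and 609 CPM in 3C, 3D and 3M, so all 3 clones were above wild type, with a log2 fold change of 1.87 ± 0.17 (SE). The ES cell identity of the label was seen in its markers. Pou5f1 had 766 CPM in wt26 cells and between 698 and 756 CPM in the clones, while of the fibroblast markers Col3a1, Lum and Dcn had no counts in any library and Postn at most 1. Of the same list, Fn1, which ES cells also express, had 2371 CPM in wt26 cells, Thy1 had 31.7 CPM in them and between 18.6 and 43.7 CPM in the clones, and Col1a1 was at 1.51 CPM or less in every library. The genes of chromosome 14 as a whole were higher by a median of 0.34 to 0.35 on the log2 scale in all 3 clones and those of chromosome 13 by 0.48 in 3C and 3M. None of the 8 genes lies on these chromosomes, and the part of these shifts in the values of the genes below that do lie on them was not tested. In bulk RNA, more cells that express a gene and more RNA per cell cannot be told apart. The labels do not say whether the libraries were prepared together, and since wild type has 1 library, every error rests on the spread between the sister clones.

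Hmga2 was above wild type in every clone. It had 733 counts in wt26 cells and 1001, 1457 and 1228 in 3C, 3D and 3M. In CPM it stood at 38.4 in wt26 cells (95% exact Poisson interval 35.7 to 41.3) against 74.3 (69.7 to 79.0) in 3C, 100.1 (95.1 to 105) in 3D and 79.3 (74.9 to 83.8) in 3M. The lowest clone was well above wild type and outside its counting interval, and 3D was the highest of the 3. The clones averaged 84.5 ± 13.7 CPM (SD, n = 3), with a fitted log2 fold change of 1.14 ± 0.19 (SE). This was 2.20-fold, or between 1.93-fold and 2.51-fold at 1 standard error. These values chose the gene and are no test of it. All intervals on counts cover counting error only.

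**Figure D1:**
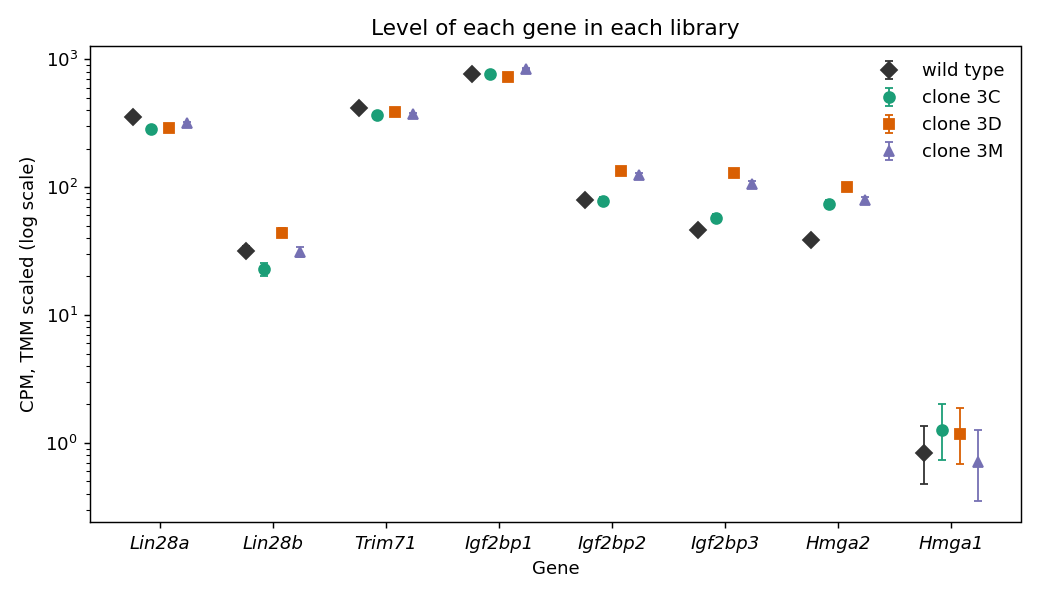
Level of the 8 genes in each library, in TMM-scaled CPM on a log scale. Points are single libraries (diamond wild type, circle 3C, square 3D, triangle 3M) and bars the 95% exact Poisson interval for counting error. For Hmga2 the 3 clones lie between 74.3 and 100.1 CPM, all above wild type at 38.4 CPM, while Lin28a, Trim71 and Igf2bp1 stay within a narrow band. Hmga1 is counted near 1 CPM, a level that is uncertain.

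Lin28a, the Lin28 protein that predominates in ES cells, was slightly lower in the clones. It had 350 CPM in wt26 cells and 286, 291 and 315 CPM in 3C, 3D and 3M, so wild type was above all of them. The clones averaged 297 ± 15.4 CPM (SD, n = 3), and the gene had a log2 fold change of -0.24 ± 0.08 (SE). Lin28b, the paralog, differed between the clones instead. It had 31.8 CPM in wt26 cells, 22.8 (20.3 to 25.5) in 3C, 44.1 (40.7 to 47.6) in 3D and 31.0 (28.3 to 33.9) in 3M. Clone 3C was below and 3D above wild type, with 3M beside it, and the intervals of the 3 clones did not overlap. The clone mean of 32.6 ± 10.7 CPM (SD, n = 3) lay next to wild type, with a log2 fold change of 0.04 ± 0.33 (SE). Without 3D that value was -0.24, and without 3C it was 0.24.

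Trim71 was the steadiest of the genes between clones. It had 417 CPM in wt26 cells and 363, 385 and 371 CPM in 3C, 3D and 3M, all below wild type. The coefficient of variation between the clones was 2.97%, against a median of 5.40% over the 6838 tested genes with a mean of at least 300 counts. Those genes were not matched in depth to Trim71, which had 4896 to 5750 counts in the clones. Counting error is a larger share of the level at low counts. The 90th percentile of those genes was 15.8%. Lin28a (5.20%) and Igf2bp1 (7.72%) were below it, and Hmga2 (16.2%), Igf2bp2 (26.7%), Lin28b (32.9%) and Igf2bp3 (37.7%) above it. The log2 fold change of Trim71 was -0.16 ± 0.06 (SE).

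The 3 Igf2bp genes did not move alike. Igf2bp1, the most abundant of them and a binder of the Igf2 and Actb mRNAs, had 768 CPM in wt26 cells and 763, 727 and 844 CPM in 3C, 3D and 3M. Wild type was inside the range of the clones, and the log2 fold change was 0.02 ± 0.09 (SE). Igf2bp2, which has been linked to metabolism, had 78.9 CPM in wt26 cells, 78.0 (73.4 to 82.9) in 3C, 135 (129 to 141) in 3D and 123 (118 to 129) in 3M. Clone 3C sat at the wild-type level and the other clones well above it. Igf2bp3, an oncofetal RNA-binding protein, had 46.6 CPM in wt26 cells, 57.4 (53.4 to 61.6) in 3C, 130 (124 to 136) in 3D and 106 (101 to 111) in 3M. All clones were above wild type, but 3C by much less than 3D and 3M. The log2 fold changes were 0.51 ± 0.30 (SE) for Igf2bp2 and 1.07 ± 0.44 (SE) for Igf2bp3, and without 3C they were 0.71 and 1.34.

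In 5 of the 8 genes (Igf2bp2, Igf2bp3, Lin28b, Hmga2 and Trim71) 3D was the highest clone, 3M the next and 3C the lowest, an order noticed after the values were seen and met by 20.1% of all genes tested. Counting error does not resolve the full order for Hmga2 and Trim71. The intervals of 3C and 3M overlapped for Hmga2 (69.7 to 79.0 and 74.9 to 83.8) and for Trim71 (353 to 373 and 362 to 381). That of 3D for Trim71 (375 to 395) also overlapped that of 3M. The 3D level was 1.73-fold that of 3C for Igf2bp2, 2.26-fold for Igf2bp3, 1.93-fold for Lin28b, 1.35-fold for Hmga2 and 1.06-fold for Trim71. In 3M the ratios to 3C were 1.58, 1.85, 1.36, 1.07 and 1.02. Igf2bp2 and Igf2bp3 were the 2 of the 8 genes with both 3D and 3M at least 1.5-fold above 3C, a rule chosen after their values were seen, and 3.54% of all 13267 genes met it. Each clone is 1 library, so no difference between clones was tested.

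**Figure D2:**
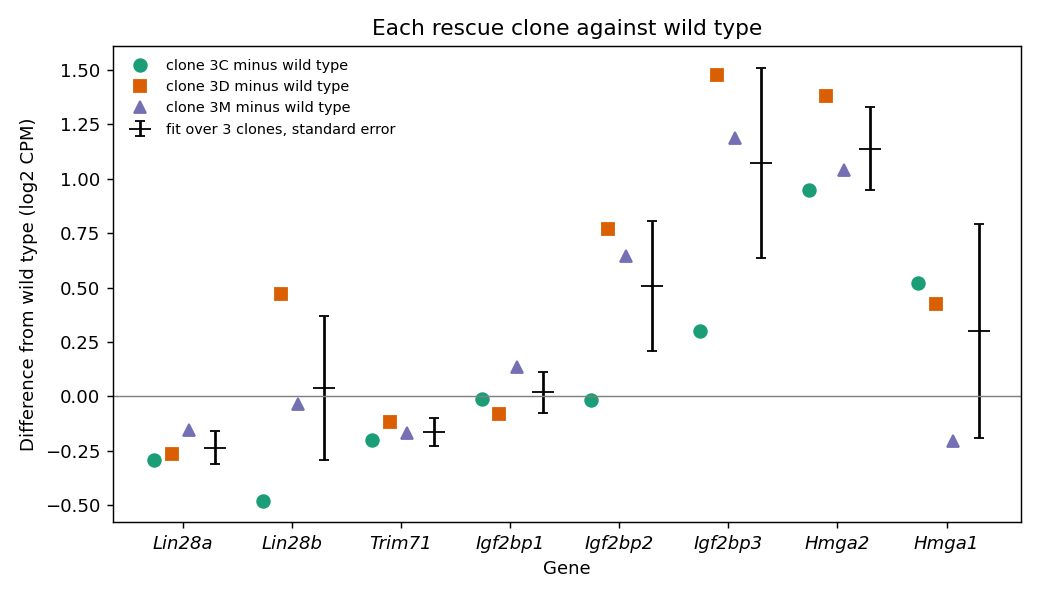
Difference of each rescue clone from wild type for the 8 genes, in log2 CPM with a prior count of 2. Coloured points are the clones and the black marks the fitted log2 fold change over the 3 clones with its standard error. For Hmga2 the clones lie at 0.95, 1.38 and 1.04, and for Igf2bp3 3C lies at 0.30 below 3D at 1.48 and 3M at 1.19.

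Per kb of the longest annotated coding transcript, the 3 Igf2bp genes summed to 123 CPM per kb in wt26 cells and to 124, 151 and 157 CPM per kb in 3C, 3D and 3M. Igf2bp1 made up 74.8% of that sum in wt26 cells and 73.3% in 3C, but 57.4% in 3D and 64.2% in 3M. Igf2bp3 made up 8.74% in wt26 cells, 10.6% in 3C, 19.7% in 3D and 15.6% in 3M. The larger sums of 3D and 3M thus came with a larger share of the less abundant members. Of the summed Lin28 level, Lin28b made up 5.57% in wt26 cells, 4.92% in 3C, 8.94% in 3D and 6.01% in 3M.

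**Figure D3:**
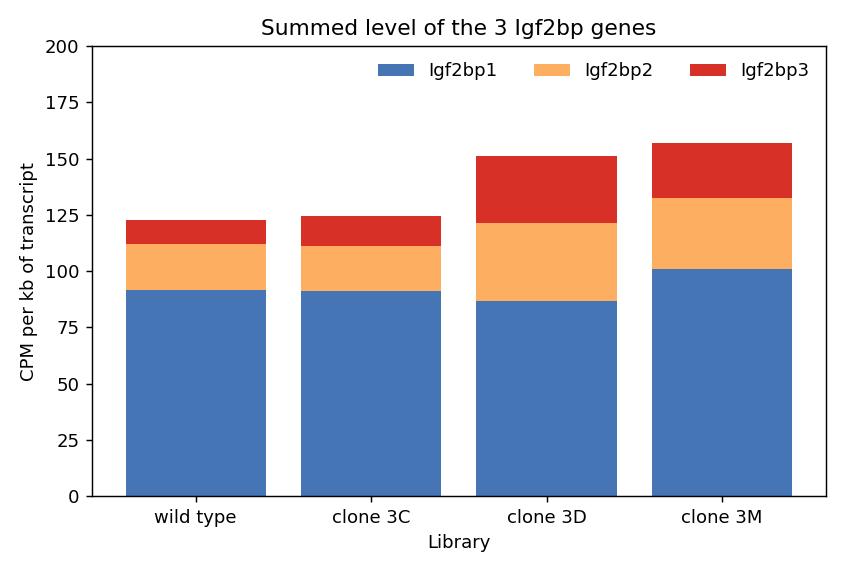
Summed level of Igf2bp1, Igf2bp2 and Igf2bp3 in CPM per kb of transcript, 1 stacked bar for each library. The bars reach 123 in wt26 cells and 124 in 3C, and 151 and 157 in 3D and 3M, where the bands of Igf2bp2 and Igf2bp3 are wider.

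On the same scale of CPM per kb, the order of the levels in wt26 cells was Lin28a (99.8), Igf2bp1 (91.7), Trim71 (44.7), Igf2bp2 (20.2), Igf2bp3 (10.7), Hmga2 (10.1) and Lin28b (5.88). Hmga1 (0.42) was kept out of the order, since its level is uncertain. In the clones Igf2bp1 (92.9 ± 7.17, SD, n = 3) was followed by Lin28a (84.8 ± 4.41), and Trim71 (40.0 ± 1.19) was below both. Within each clone Igf2bp1 was above Lin28a, the reverse of wt26 cells. The values were 91.1 and 81.5 in 3C, 86.8 and 83.0 in 3D, and 101 and 89.8 in 3M. Igf2bp2 (28.7 ± 7.68), Igf2bp3 (22.5 ± 8.48) and Hmga2 (22.2 ± 3.60) overlapped each other and lay above Lin28b (6.04 ± 1.99). The uncertain value of Hmga1 was 0.52 ± 0.15. Which transcripts the cells use was not measured, so the lengths are those of the annotation.

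Hmga1 was measured too poorly to compare. It had 16 counts in wt26 cells and 17, 17 and 11 in 3C, 3D and 3M, with a log2 fold change of 0.30 ± 0.49 (SE). The tables count uniquely mapped read pairs only, so the low level of Hmga1 is uncertain.

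The reads came from the strand of the genes. The opposite strand held between 1.25% and 1.29% of the counts over all genes, and between 0.60% and 2.14% of those on Hmga2. On Igf2bp3 the share was between 3.63% and 8.07%, with 78 counts in wt26 cells and between 61 and 76 in the clones, where the 3′ end of the gene overlaps Malsu1 on the other strand. The counts used are those of the gene's own strand, on which the Igf2bp3 values above rest.

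Of the 8 genes, edgeR's quasi-likelihood test called 0 at an adjusted p of 0.01, beside 0.00754% of all genes tested, which is the single gene Ddx3y. Ddx3y had 922 counts in wt26 cells and 5, 0 and 1 in 3C, 3D and 3M, so it was nearly absent from the clones. At an unadjusted p under 0.05 edgeR's test counted 3 of the 8 and 1373 of 13267. DESeq2 called 1 of the 8, Hmga2, as higher in rescue, beside 0.524% of the genes to which it gave an adjusted p. Without 3D, edgeR's test also called Hmga2, among 420 genes (3.17% of those tested without 3D). Wild type lay below all 3 clones for 2 of the 8, Hmga2 and Igf2bp3, and for 28.7% of all genes tested. It lay above all clones for Lin28a and Trim71, and for 28.4% of all genes. The contrast was used to choose the genes, so nothing is read from these counts. The size of the Hmga2 value was exceeded in 2.70% of all genes tested, that of Igf2bp3 in 3.21% and that of Igf2bp2 in 13.9%. For the others the share was 27.5% (Hmga1), 34.7% (Lin28a), 47.4% (Trim71), 84.1% (Lin28b) and 92.4% (Igf2bp1). Hmga2 was chosen for its value in this contrast, so its place among all genes is no test of it.

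Genes with more let-7 sites in the 3′ UTR had median differences between rescue and wild type close to that of all genes. A 3′ UTR was at hand for 12094 of the 13267 tested genes (91.2%). Leaving out the 8 genes, the median log2 fold change was 0.0020 for the 10025 genes with no site, 0.0099 for the 1676 with 1 site, 0.0073 for the 310 with 2 sites and -0.014 for the 75 with 3 or more. Over all genes tested it was 0.0051. The medians of the single clones for genes with 3 or more sites were -0.025, -0.0071 and 0.039 in 3C, 3D and 3M, around 0 in every clone. Wild type lay below all clones for 28.0% of these 75 genes, next to 28.6% of the genes with no site. Of the 8 genes, Hmga2 with 7 sites had a log2 fold change of 1.14 and Trim71 with 6 had -0.16. Lin28b and Igf2bp1, with 5 sites each, had 0.04 and 0.02. Lin28a and Igf2bp2, with 2 each, had -0.24 and 0.51, and Hmga1 and Igf2bp3, with 1 each, had 0.30 and 1.07. The part of let-7 in these values was not tested.

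**Figure D4:**
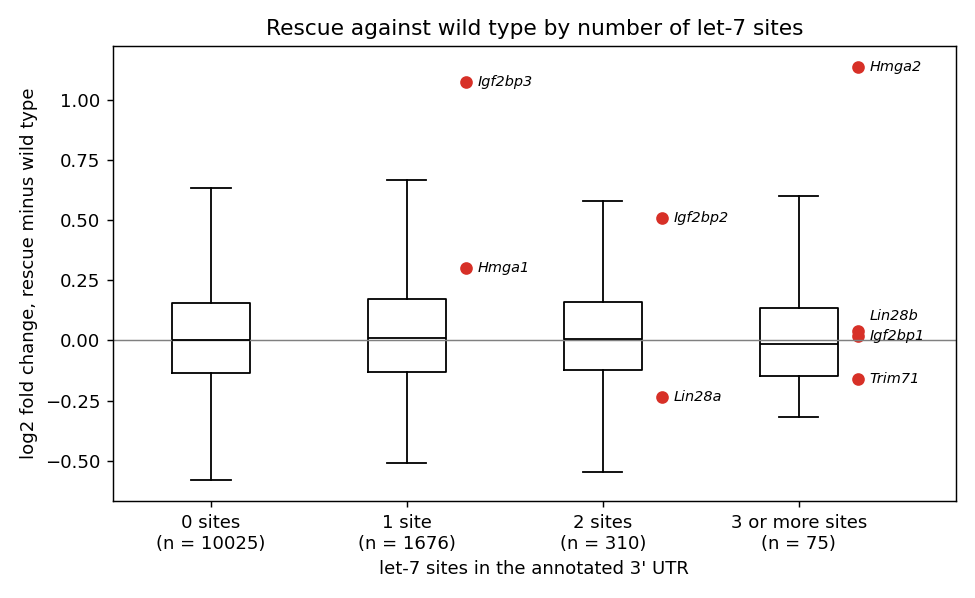
Log2 fold change between rescue and wild type by the number of let-7 sites in the annotated 3′ UTR. Boxes show the median and quartiles of all other tested genes and whiskers the 5th and 95th percentiles, with the 8 genes as red points in their own class. The 4 medians lie between -0.014 and 0.0099, and Hmga2 at 1.14 and Igf2bp3 at 1.07 lie above the whiskers of their classes.

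The let-7 precursors themselves left few reads in these libraries, which are not small RNA libraries. The 12 let-7 and Mir98 rows summed to 45 counts in wt26 cells and 40, 23 and 36 in 3C, 3D and 3M. In CPM this was 2.36 (1.72 to 3.16) in wt26 cells and 2.97 (2.12 to 4.04), 1.58 (1.002 to 2.37) and 2.32 (1.63 to 3.22) in the clones, with overlapping intervals. Mirlet7d had 17 counts in wt26 cells and 6, 8 and 14 in the clones, while Mirlet7f-1 had 13 in wild type and 22, 7 and 11 in them. Both lie on chromosome 13, which was shifted in 3C and 3M. Rows for Mirlet7a-2, Mirlet7b, Mirlet7c-1 and Mirlet7c-2 had no counts. Mature let-7 was not measured, and a difference in it could not be detected in these data. The protein-coding hosts Wdr82 (Mirlet7g) and Huwe1 (Mirlet7f-2 and Mir98) had log2 fold changes of 0.05 ± 0.07 (SE) and 0.01 ± 0.08 (SE), and 0 of the 4 tested genes of this list passed the test.

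Of the 18 genes of let-7 maturation and Lin28 action, among them Drosha, Dgcr8, Dicer1 and the uridylyltransferases, 0 passed edgeR's adjusted p of 0.01 in either direction, and 2 had an unadjusted p under 0.05. Their median log2 fold change was -0.013, beside 0.0051 over all genes, with wild type below all clones for 5 and above them for 7. Tut4, which tails pre-let-7 once Lin28 has recruited it, had 101.0 CPM in wt26 cells and between 99.3 and 103 CPM in the clones. Tut7, the partner enzyme, had 53.6 CPM in wt26 cells and 84.5, 56.0 and 85.3 CPM in 3C, 3D and 3M, with a fitted log2 fold change of 0.49 ± 0.25 (SE, adjusted p = 0.56 in edgeR's test with Benjamini-Hochberg adjustment). It lies on chromosome 13, which was higher in 3C and 3M, and the part of that shift in the value of Tut7 was not tested. Zswim8, a ubiquitin ligase subunit of microRNA decay, had a value of 0.44 ± 0.14 (SE, edgeR adjusted p = 0.38) and lies on chromosome 14. Dicer1, which cuts the precursor, had 251 CPM in wt26 cells and 189, 213 and 169 CPM in the clones, a difference of -0.40 ± 0.13 (SE, edgeR adjusted p = 0.40).

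Of 9 tested genes of the Argonaute and silencing complex, 0 passed and 2 had an unadjusted p under 0.05, with a median of -0.015. The difference furthest from 0 was that of Tnrc6c, a GW182 protein that links Argonaute to deadenylation, with 116 CPM in wt26 cells and 90.3, 82.9 and 77.7 CPM in the clones (-0.47 ± 0.10 SE, edgeR adjusted p = 0.24). Ddx6, an RNA helicase of the same pathway, had -0.17 ± 0.06 (SE, edgeR adjusted p = 0.44). Ago2, the slicing Argonaute, had 300 CPM in wt26 cells and between 321 and 337 CPM in the clones.

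The wider set of 41 tested let-7 targets outside the group had a median log2 fold change of -0.0096, and 0 of them passed the test, with 8 at an unadjusted p under 0.05. Wild type lay below all clones for 11 and above them for 11, beside 28.7% and 28.4% of all genes. Ccnd2, cyclin D2, had 12.3 CPM in wt26 cells, 15.1 in 3C, 41.0 in 3D and 43.0 in 3M, so that 3C stayed near wild type. Like Igf2bp2, Igf2bp3 and 3.54% of all genes tested, Ccnd2 had both 3D and 3M at least 1.5-fold above 3C. Its log2 fold change was 1.43 ± 0.60 (SE, edgeR adjusted p = 0.50). Thbs1, thrombospondin 1, had 6 counts in wt26 cells and 14, 8 and 12 in the clones (1.29 ± 0.64 SE, edgeR adjusted p = 0.55).

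Among 11 other HMG protein genes 0 passed, 1 had an unadjusted p under 0.05 and the median was -0.0084. Hmgn5, a nucleosome-binding protein, had 8.97 CPM in wt26 cells and 15.2, 12.9 and 15.2 CPM in the clones (0.68 ± 0.18 SE, edgeR adjusted p = 0.32). Hmgb3 had 6.71 CPM in wt26 cells and 4.45, 5.50 and 4.45 CPM in the clones (-0.48 ± 0.22 SE, edgeR adjusted p = 0.52). The median of this wider class was thus close to that of all genes, 0.0051.

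Of 5 tested mRNA targets and relatives of Lin28 and the Igf2bp proteins, 0 passed and 1 had an unadjusted p under 0.05. That was Igf2, the growth factor mRNA after which the Igf2bp proteins are named, with 52 counts in wt26 cells and 118, 100 and 295 in 3C, 3D and 3M. In CPM it had 2.73 in wt26 cells and 8.75, 6.87 and 19.04 in the clones, all above wild type, with 3M highest. The log2 fold change was 2.09 ± 0.71 (SE, edgeR adjusted p = 0.43). Stau1, a double-stranded RNA-binding protein, had 0.20 ± 0.09 (SE, edgeR adjusted p = 0.51), and the list's median was 0.06 (0.13 without 3C and 0.00041 without 3D).

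Markers of cell state were set beside these values, since Lin28b and Hmga2 are known to rise as ES cells leave the naive state. Of 12 naive markers 0 passed and 2 had an unadjusted p under 0.05, the median was 0.18 (0.29 without 3C and 0.09 without 3M), and the summed level was 4738 CPM in wt26 cells and between 4968 and 5558 CPM in the clones. Prdm14 had 17.5 CPM in wt26 cells and 19.7, 31.9 and 26.1 CPM in the clones (0.57 ± 0.27 SE, edgeR adjusted p = 0.53), and Nanog 300 CPM and 468, 358 and 481 CPM (0.54 ± 0.17 SE, edgeR adjusted p = 0.40). Of 9 tested formative and primed markers 0 passed and 3 had an unadjusted p under 0.05. The summed level of that list was 539 CPM in wt26 cells and between 348 and 427 CPM in the clones, with Cer1 at 0 throughout and Fgf5 at most 3 counts. Its median was 0.08, but 0.18 without 3C, -0.31 without 3D and -0.43 without chromosomes 13 and 14 or in limma-voom. Dnmt3a, a de novo DNA methyltransferase, had 167 CPM in wt26 cells and 78.3, 63.3 and 62.4 CPM in the clones (-1.30, edgeR adjusted p = 0.11), and it passed in DESeq2. Fst, follistatin, had 16 counts in wt26 cells and 22, 54 and 44 in the clones (1.70 ± 0.58 SE, edgeR adjusted p = 0.43) and lies on chromosome 13. Otx2, an early formative factor, had 6.502 CPM in wt26 cells and 1.71, 14.7 and 4.13 CPM in 3C, 3D and 3M, lowest in 3C and highest in 3D. Others of the list were lower in every clone. Pou3f1 had 10.0 CPM in wt26 cells and 6.68, 7.01 and 6.07 CPM in the clones. Dnmt3b had 232 CPM in wt26 cells and 196, 140 and 180 CPM in the clones, lowest in 3D. Wild type lay below all clones for 2 of the 9 tested formative and primed markers and above them for 3. For the 12 naive markers it lay below all clones for 6 and above them for 1. Over all genes tested the shares were 28.7% and 28.4%.

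Of 7 tested markers of differentiated lineages 0 passed and 1 had an unadjusted p under 0.05, with a median of 0.47 and a summed level of 65.9 CPM in wt26 cells and 105, 74.8 and 91.2 CPM in 3C, 3D and 3M. Gata6, Sox17, Foxa2, Pax6 and Cdx2 were too low to be tested. For 3 of the 7 tested markers wild type lay below all clones, and for 0 above them. Krt8, a simple keratin, had 8.55 CPM in wt26 cells and 19.5, 12.6 and 15.9 CPM in the clones (0.90 ± 0.27 SE, edgeR adjusted p = 0.37), and Sox7, on chromosome 14, had 0.82 ± 0.45 (SE, edgeR adjusted p = 0.58). The 3 tested fibroblast markers had a median of -0.17 (-0.11 without 3C and -0.03 without 3M), and 0 passed. The part of these markers in the values of the 8 genes was not tested.

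Of the 7 other tested genes whose start lies within 500 kb of Hmga2 (chromosome 10, from 120361275 to 120476469 of mm10, minus strand), 0 passed the test. Helb, a DNA helicase, had 108 CPM in wt26 cells and between 104 and 111 CPM in the clones. Llph, Tmbim4 and Lemd3 had log2 fold changes of 0.03, 0.05 and -0.10. Irak3, a negative regulator of Toll-like receptor signalling, had 27 counts in wt26 cells and 73, 48 and 32 in the clones, with a fitted log2 fold change of 1.31 ± 0.61 (SE, edgeR adjusted p = 0.53). Its clones came in another order than those of Hmga2, with 3C highest and 3M lowest. Msrb3, a methionine sulfoxide reductase, had 13 counts in wt26 cells and 6, 4 and 5 in the clones, lower in all of them (-0.97 ± 0.54 SE, edgeR adjusted p = 0.58). Gm15910 had 9 counts in wt26 cells and 3, 14 and 7 in the clones (0.22 ± 0.80 SE, edgeR adjusted p = 0.95).

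**Figure D5:**
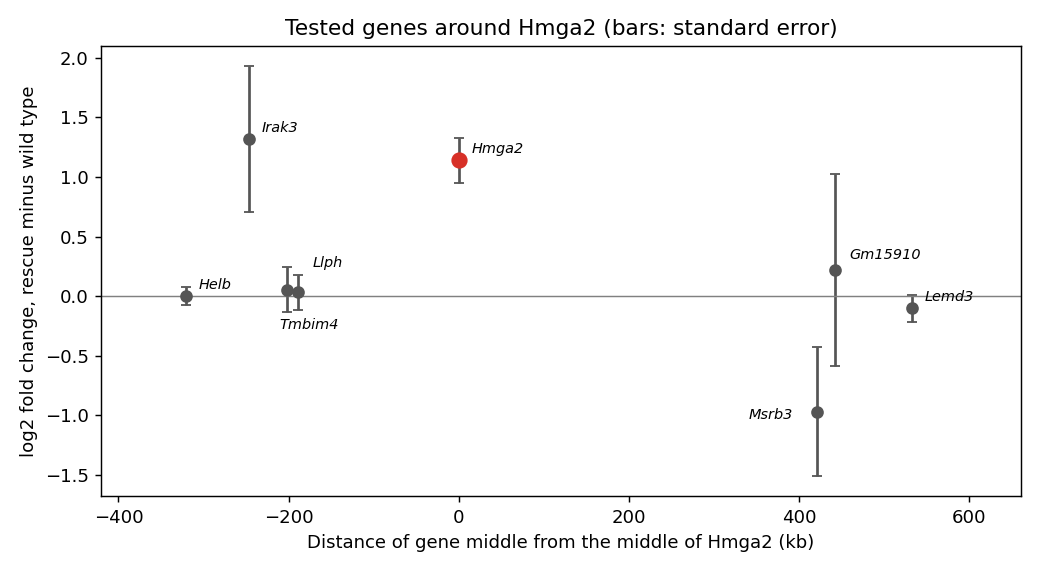
Log2 fold change between rescue and wild type of the tested genes around Hmga2, against the distance of the gene's middle from that of Hmga2 in kb. Points are the fitted values and bars their standard errors, with Hmga2 in red. Hmga2 lies at 1.14 and Irak3 at 1.31 with a wide error, while Helb, Tmbim4, Llph and Lemd3 lie between -0.10 and 0.05.

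The 5 tested genes whose differences from wild type in the 3 clones were nearest to those of Hmga2, by Euclidean distance over 3 log2 values, were Nynrin, Raet1e, Ttc30b, Grid1 and Hsf5. Only Nynrin, which carries a retroviral integrase domain, had a depth like that of Hmga2. It had 83.4 CPM in wt26 cells and 153, 220 and 172 CPM in 3C, 3D and 3M, differences of 0.87, 1.40 and 1.05 beside 0.95, 1.38 and 1.04 for Hmga2. Nynrin and Grid1 lie on the shifted chromosome 14. The other 4 genes had between 6 and 17 counts in wt26 cells and at most 34 in a clone. The distances ran from 0.077 for Nynrin to 0.26 for Hsf5, and the likeness rests on 3 clones that share the 1 wild-type library.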

How the data were processed

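The authors aligned paired-end reads with STAR to mm10 and deposited a raw count for each gene, of read pairs that map uniquely, from 4 rRNA-depleted, directional libraries. Reads were assigned to an annotation not given in the sources used here. The reverse-strand column was used, and rows that name no gene stayed out. These rows took 47.3% of the wild-type read pairs and 53.0% to 54.9% of those of the clones. Total counts on genes ran from 13620914 to 18789457.

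The test was that of edgeR 4.0.16 under R 4.3.3 (estimateDisp, then glmQLFit and glmQLFTest with legacy set to FALSE), TMM scaling and filterByExpr, over all 4 libraries, at a Benjamini-Hochberg adjusted p of 0.01. The standard error is the size of the log2 fold change over the square root of F. Between any 2 clones, chi-square per gene was 7.42 or more, so none is a copy of another. The steps were tested on simulated counts.

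The 8 genes and the lists were chosen with earlier results of these data known. Named were the 8 genes, of each list the genes past the threshold and the 2 with the largest change among those with wild type outside the range of the clones, tested genes around Hmga2, its 5 nearest patterns and Morc3. Others named (Tut4, Ago2, Otx2, Pou3f1, Dnmt3b, Ddx3y and marker genes at or near 0) serve as context. Let-7 sites came from GENCODE vM21 transcripts, gene positions and microRNAs from RefSeq's GRCm38.p6 tables, where 22542 of 24054 symbols matched directly and 1352 by a synonym. Of the 8 genes all matched, and of 12 hairpins 1 had no mature 5′ sequence listed. Mir99ahg was not found in the tables. Alternatives were DESeq2 1.42.0, limma-voom (limma 3.58.1), DESeq2 size factors, other filters, the unstranded column, an adjusted p of 0.05, and each clone left out. The legacy method of edgeR and the medians without chromosomes 13 and 14 were added after seeing the data.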

Additional observations from a re-analysis of the deposited data

How the results depend on the processing

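With 1 wild-type library the p-values rest on the spread between sister clones, which limits every call. No paired analysis was possible because the labels number no replicates and wild type has 1 library. The number of called genes was 1, and it was 0 with at least 10 counts in every library, 0 with limma-voom, 0 with the legacy method of edgeR and 64 with DESeq2. Leaving out single clones gave from 0 (without 3M) to 420 (without 3D). Of the 8 genes 0 were called, but 1 with DESeq2 and from 0 to 1 when single clones were left out, Hmga2 in both cases. Over all genes the share called was 0.658% with DESeq2 and 3.17% without 3D. Hmga2 was chosen from this contrast, so nothing is read from its calls. The cause was not tested. The log2 fold change of Hmga2 stayed at 0.998 or more and 1.22 or less when single clones were left out and in all other alternatives, and those of Igf2bp2 and Igf2bp3 lay between 0.35 and 0.71 and between 0.82 and 1.34. Lin28b changed direction when single clones were left out, between -0.24 and 0.24, and Igf2bp1 between -0.04 and 0.06. Without 3D, Dicer1 and Tut7 of let-7 maturation, Igf2, Nanog, Dnmt3a, Krt8 and Fn1 had an adjusted p under 0.01 by edgeR, and Dnmt3a passed also in DESeq2. Tut7 lies on chromosome 13, where the median difference from wild type was 0.48 in 3C and 3M and 0.03 in 3D. The part of that shift in the calls made without 3D was not tested. The median of the formative and primed markers was 0.08, -0.31 without 3D, -0.43 in limma-voom and -0.43 without chromosomes 13 and 14. That of the other let-7 targets was -0.0096, and 0.033 without 3D. With single clones left out, the medians of the lists of let-7 maturation, silencing complex, let-7 genes and hosts, other let-7 targets and other HMG proteins lay between -0.066 and 0.033, on either side of 0 for some.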
